A study of Homo sapiens with 6 samples.

Results

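The activins, the follistatins that bind them and the receptors they signal through were followed in 12Z, a human epithelial line established from endometriosis, after knockdown of SMARCA4. Members were 9 genes chosen by name: the ligand subunit genes INHBA and INHBB, the follistatin family genes FST, FSTL1 and FSTL3, the type I receptor genes ACVR1 and ACVR1B, and the type II receptor genes ACVR2A and ACVR2B. They stand among 58336 gene identifiers, of which 15830 had enough counts to be tested, all 9 members included. Both groups were 12Z cells grown in 10% serum, transfected with 50 nM siRNA, moved to 0.5% serum at 48 h and harvested at 72 h. The siBRG1 group (n = 3 libraries) received siRNA against SMARCA4, whose protein BRG1 drives SWI/SNF chromatin remodelling, and the control group (n = 3) received non-targeting siRNA. A single cell line was used, and the labels do not call the replicates separate cultures, so the p-values speak only of spread among these libraries, possibly technical.

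Activins are secreted dimers of inhibin beta subunits. INHBA encodes the beta A subunit of activin A and INHBB the beta B subunit of activin B. A dimer binds a type II receptor, ACVR2A or ACVR2B, which recruits and phosphorylates a type I receptor, ACVR1B for activin, and the signal passes to SMAD2 and SMAD3. Follistatin, encoded by FST, and the related FSTL3 protein wrap around activin and block its binding, and FSTL1 is a related protein with a follistatin-like domain. ACVR1 is best known as a type I receptor for bone morphogenetic proteins. Activins and follistatin are made in the endometrium, where they take part in decidualisation.

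The labels describe the control libraries as re-analysed samples of an earlier deposit and the siBRG1 libraries carry no such mark, so for every gene below the batch cannot be told apart from the group. Reads mapping to several places were 20.3 ± 1.62% in siBRG1 and 9.81 ± 0.224% in control (SD, n = 3), and their part in the results was not tested. Counts assigned to genes ranged from 12391200 to 13369700 in siBRG1 and from 40228700 to 49720300 in control libraries. SMARCA4 itself stood at 63.3 ± 14.4 CPM in siBRG1 and 258 ± 11.8 CPM in control (SD, n = 3), where CPM is a gene's count per 1000000 of the normalised library total. All 8 epithelial markers listed for the cell line were detected, and 4 rose and 2 fell. EPCAM was at 1.61 ± 0.264 CPM in siBRG1 and 0.251 ± 0.0889 CPM in control, CDH1 at 5.87 ± 1.35 and 3.05 ± 0.553 CPM, KRT7 at 36.9 ± 4.50 and 196 ± 9.10 CPM, and KRT19 at 609 ± 14.4 and 883 ± 20.4 CPM (SD, n = 3). The epithelial markers summed to 885 to 946 RPKM in siBRG1 and 1057 to 1087 RPKM in control libraries, where RPKM is CPM per kilobase of exon. Of 6 stromal fibroblast markers 5 rose and 1 fell, and they summed to 437 to 459 and 280 to 298 RPKM. Immune markers summed to 4.83 to 5.30 against 2.003 to 2.62 RPKM, with CD14 called higher of 2 tested and CD3E at 0 counts, and endothelial markers to 2.26 to 3.20 against 2.52 to 2.94 RPKM, with 1 of 3 tested higher and 1 lower. Of all genes tested 36.1% were called higher and 36.5% lower. The part of the marker shifts in the results below was not tested. In bulk RNA, fewer cells that express a gene and less RNA of it per cell cannot be told apart.

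Of the 9 members, 4 fell and 2 rose, and 3 did not pass the test. The 6 called are 66.7% of the members, against 72.6% of all genes tested, so the share called is near the background of this comparison. The sizes were uneven. INHBA fell 4.75-fold and FST fell 2.98-fold, and these were the 2 members called lower by at least 2-fold, a size that 11.1% of all genes tested reached in that direction, 10.4% in the other and 21.6% in either. ACVR2A, FSTL3, ACVR1 and ACVR1B changed by less than 2-fold, and INHBB, FSTL1 and ACVR2B did not pass. The median log2 fold change of the members was −0.13, against −0.0050 for all genes tested. Their median absolute log2 fold change was 0.50, against 0.48 for all genes tested. CPM of the groups did not overlap for 6 members, which held for 74.3% of all genes tested. Adjusted p-values are from edgeR's quasi-likelihood test over all genes with Benjamini-Hochberg adjustment, and a value under 0.05 counted as a call.

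**Figure D1:**
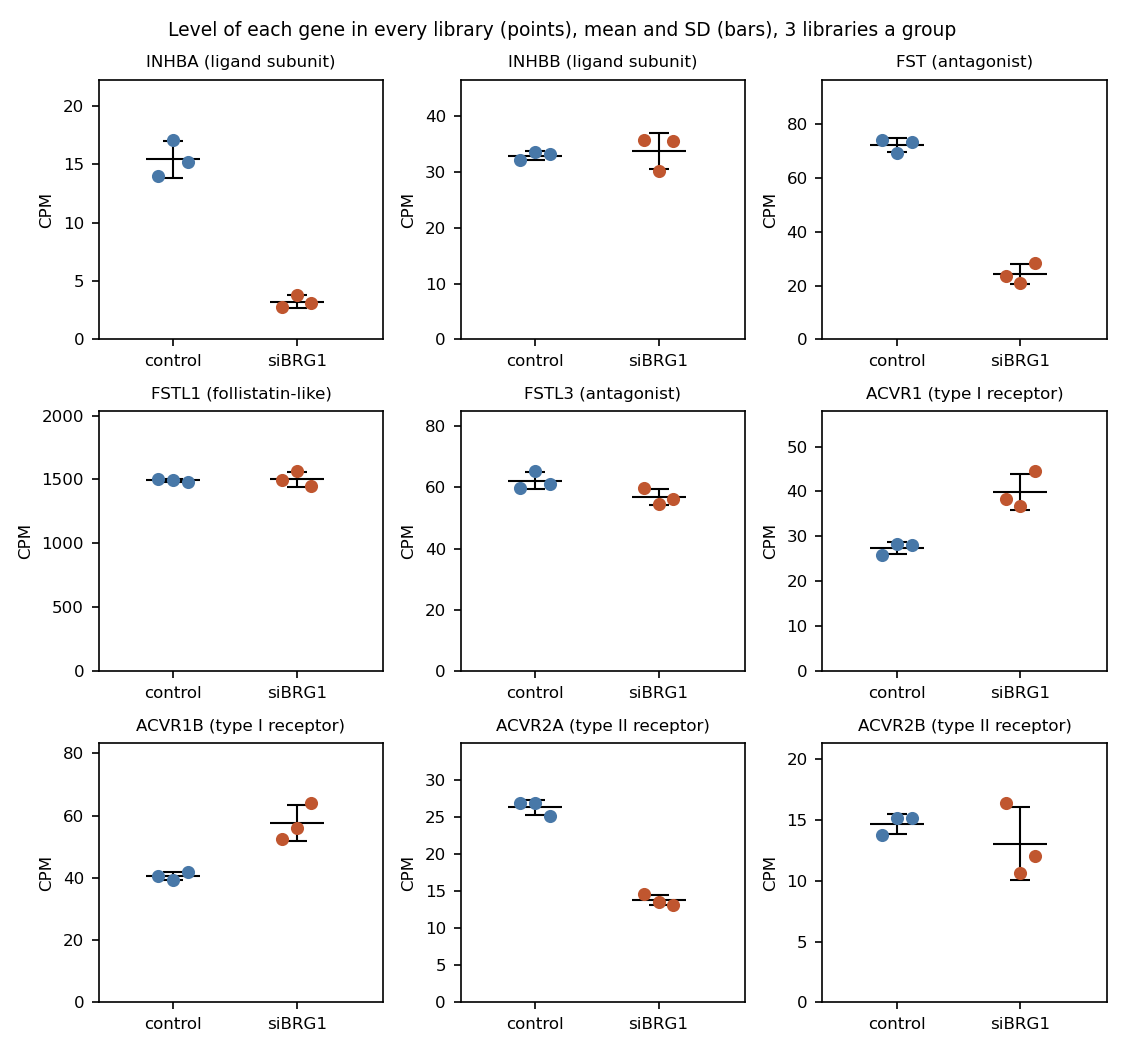
CPM of the 9 members in each of 3 control and 3 siBRG1 libraries (points), with the mean and SD (bars); each panel has its own axis from 0. INHBA, FST and ACVR2A lie lower and ACVR1 and ACVR1B higher in every siBRG1 library, INHBB, FSTL1 and ACVR2B overlap between groups, and FSTL3 is separated by a narrow gap.

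Of the ligand subunits, the activin A gene fell and the activin B gene was not called. INHBA (ENSG00000122641.10, chromosome 7, 41667168 to 41705834, minus strand, GRCh38) was read at 2.77, 3.84 and 3.14 CPM in siBRG1 libraries 1, 2 and 3 and at 14.0, 17.1 and 15.2 CPM in control libraries 1, 2 and 3. Every siBRG1 library lay far below every control library. The means were 3.25 ± 0.545 and 15.4 ± 1.57 CPM (SD, n = 3), a log2 fold change of −2.25 (SE 0.142, 95% interval −2.54 to −1.96, adjusted p = 2.61e-14). These siBRG1 values rest on 38, 49 and 40 counts and the control values on 680, 671 and 610. Over 15 alternative settings the log2 fold change stayed between −2.38 and −2.09 and was called in each. A larger absolute change was found for 5.27% of all genes tested.

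INHBB (ENSG00000163083.5, chromosome 2, 120346143 to 120351808, plus strand) stood at 35.8, 30.1 and 35.5 CPM in siBRG1 and at 32.1, 33.6 and 33.2 CPM in control libraries. The lowest and the highest values were both siBRG1 libraries, and the groups overlapped. The log2 fold change was 0.04 (SE 0.0691, adjusted p = 0.626). Its 95% interval ran from −0.10 to 0.18, so in this fit changes beyond 0.931-fold or 1.13-fold lay outside it. The interval does not cover the choice of processing. With GC and length trends removed the estimate was −0.13 (adjusted p = 0.102), below the interval and not called. Per length, INHBB was the more abundant subunit in both groups. INHBA made up 15.3 ± 1.03% of the summed RPKM of the 2 subunits in control and 3.63 ± 0.942% in siBRG1 (SD, n = 3). That share was 14.4, 16.4 and 15.01% in the control libraries and 2.90, 4.69 and 3.30% in the siBRG1 libraries.

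To show what lies before the starts of these 2 ligand genes, the 250 bases before the RefSeq start of each are given on the gene's own strand (RefSeq, GRCh38.p14). The INHBA window is chr7:41703091-41703340 on the minus strand and the INHBB window is chr2:120345886-120346135 on the plus strand. Capitals mark a TATAAA match, the letters of a TATA box.
INHBA: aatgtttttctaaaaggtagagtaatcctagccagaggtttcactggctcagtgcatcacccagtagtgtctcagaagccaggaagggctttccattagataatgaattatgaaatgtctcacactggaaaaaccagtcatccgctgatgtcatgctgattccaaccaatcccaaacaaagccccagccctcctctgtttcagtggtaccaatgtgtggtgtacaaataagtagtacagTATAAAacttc
INHBB: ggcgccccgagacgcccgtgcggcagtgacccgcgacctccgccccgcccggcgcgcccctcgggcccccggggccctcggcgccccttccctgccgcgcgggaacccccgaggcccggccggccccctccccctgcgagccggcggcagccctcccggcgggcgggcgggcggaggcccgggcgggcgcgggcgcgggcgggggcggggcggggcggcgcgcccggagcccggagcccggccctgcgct
The INHBA window was 42.8% G and C, and 17.8% of 35116 RefSeq windows of this length were lower. The INHBB window was 89.6% G and C, and 99.97% of windows were lower. TATAAA was found on either strand in 10.7% of all windows, and in INHBA it stood 11 bases before the RefSeq start, within the last 18 bases that GENCODE 29 counts as exon. The rest of the INHBA window is intron of a longer GENCODE form, and the INHBB window lies outside that gene. Each window was also searched on both strands for TGANTCA (AP-1), TGACGTCA (CRE), GGAATG (TEAD) and GTCTAGAC (a SMAD palindrome), whose matches are in 6.57%, 1.65%, 11.9% and 0.182% of all windows. No other match stood in either window, which says only that these letters are not there.

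Among the follistatins, FST fell, FSTL3 was lower by a small margin and FSTL1 was not called. FST (ENSG00000134363.11, chromosome 5, 53480409 to 53487134, plus strand), which encodes follistatin, was read at 23.7, 20.9 and 28.3 CPM in siBRG1 and at 74.2, 69.2 and 73.5 CPM in control libraries. The groups were well apart. The means were 24.3 ± 3.73 and 72.3 ± 2.72 CPM (SD, n = 3), a log2 fold change of −1.57 (SE 0.0723, 95% interval −1.72 to −1.43, adjusted p = 1.95e-17). Its range over 15 alternative settings was −1.69 to −1.48, called in each. In the 250 bases before its RefSeq start, 220 of which GENCODE 29 counts as exon, 1 of the motifs above had a match, TGATTCA in capitals, 160 bases before the start, shown within chr5:53480458-53480487 on the plus strand.
FST: gaaatgtcaccTGATTCAcactgaactttt
TGANTCA is the pattern set here for AP-1, with any base at N, so a match need not be an AP-1 site. The match is a description of the sequence alone. Windows of other members had matches too. ACVR1, which rose, had TGACTCA 24 bases before a RefSeq start and GGAATG 246 bases before another. ACVR2B had a TEAD match 226 bases before its start, and FSTL3 a TATA match 29 bases before its start.

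FSTL3 (ENSG00000070404.9, chromosome 19, 676365 to 683399, plus strand), which encodes the second secreted activin-binding follistatin, stood at 59.7, 54.5 and 56.3 CPM in siBRG1 and at 59.9, 65.2 and 61.1 CPM in control libraries. The highest siBRG1 library was just under the lowest control library. The log2 fold change was −0.13 (SE 0.0552, 95% interval −0.24 to −0.01, adjusted p = 0.0427). The call was lost under 7 of 15 alternative settings (adjusted p = 0.0526 to 0.428), among them without siBRG1 replicate 2 or 3 or without control replicate 2, with unstranded counts and with scaling by library totals only. After removal of library trends with GC and length, the log2 fold change was −0.37 (adjusted p = 4.86e-07).

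FSTL1 (ENSG00000163430.11, chromosome 3, 120392293 to 120451253, minus strand), a secreted glycoprotein gene, was the most abundant member. Its values were 1498, 1563 and 1445 CPM in siBRG1 and 1504, 1495 and 1483 CPM in control libraries. The control libraries lay inside the siBRG1 range. The log2 fold change was 0.0076 (SE 0.0376, 95% interval −0.07 to 0.08, adjusted p = 0.864). It was called higher once GC and length trends were removed (0.16 on the log2 scale, adjusted p = 0.000301) and with library totals only (0.083, adjusted p = 0.0467), and its sign turned under 8 other settings. Per length FSTL1 stood above 98.7% of genes tested in control and above 98.9% in siBRG1.

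Both type I receptor genes rose, ACVR2A of the type II genes fell, and ACVR2B did not pass. ACVR1 (ENSG00000115170.13, chromosome 2, 157736444 to 157875862, minus strand), which encodes ALK2, was read at 38.4, 36.7 and 44.5 CPM in siBRG1 and at 25.9, 28.2 and 28.2 CPM in control libraries. All siBRG1 libraries lay above all control libraries. The log2 fold change was 0.54 (SE 0.0715, 95% interval 0.39 to 0.69, adjusted p = 1.16e-07), or 1.45-fold. ACVR1B (ENSG00000135503.12, chromosome 12, 51951667 to 51997078, plus strand), which encodes the activin type I receptor ALK4, stood at 52.6, 56.1 and 64.1 CPM in siBRG1 and at 40.6, 39.3 and 41.9 CPM in control libraries. Its groups were apart as well, with the wider spread in siBRG1. Its log2 fold change was 0.50 (SE 0.0632, 95% interval 0.37 to 0.63, adjusted p = 4.66e-08), or 1.42-fold. Both genes were called under all 15 alternative settings, at 0.46 to 0.62 for ACVR1 and 0.39 to 0.58 for ACVR1B. Of all genes tested 36.1% were called higher, and 45.1% and 47.9% had larger absolute changes than ACVR1 and ACVR1B.

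ACVR2A (ENSG00000121989.14, chromosome 2, 147844517 to 147930826, plus strand), one of the receptors that bind activin directly, was read at 14.6, 13.6 and 13.2 CPM in siBRG1 and at 26.8, 26.9 and 25.1 CPM in control libraries. The groups were well apart and each was tight. The log2 fold change was −0.93 (SE 0.0835, 95% interval −1.10 to −0.76, adjusted p = 6.20e-11), a 1.90-fold fall, and it ranged from −0.98 to −0.84 over 15 alternative settings, called in each. ACVR2B (ENSG00000114739.13, chromosome 3, 38453851 to 38493142, plus strand), the other activin-binding receptor, stood at 16.4, 10.7 and 12.0 CPM in siBRG1 and at 13.7, 15.1 and 15.1 CPM in control libraries. Replicate 1 of siBRG1 was the highest of the 6 libraries and the other two were the lowest. The log2 fold change was −0.16 (SE 0.114, 95% interval −0.40 to 0.07, adjusted p = 0.200). Without siBRG1 replicate 1 it was −0.37 (adjusted p = 0.00645), and with GC and length trends removed it was 0.060 (adjusted p = 0.635).

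**Figure D2:**
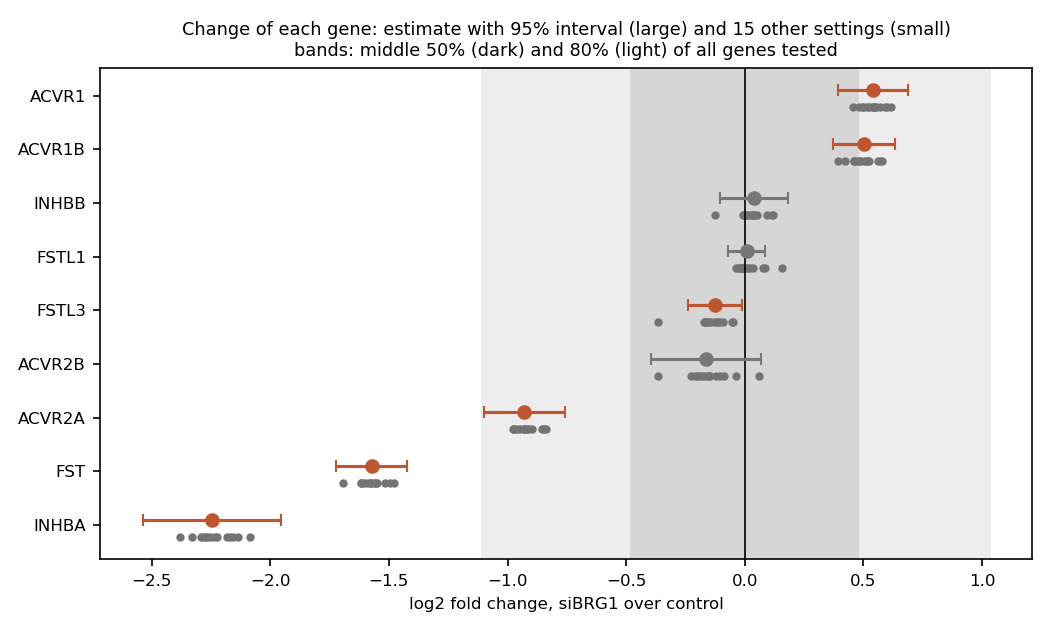
Log2 fold change, siBRG1 over control, of each member with its 95% interval (large points; orange, called; grey, not called) and its value under 15 alternative settings (small points), over bands that hold the middle 50% and 80% of all genes tested. INHBA at −2.25 and FST at −1.57 lie outside the wider band, and the values of INHBB, FSTL1 and ACVR2B under other settings fall on both sides of 0.

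Compared per length, the order of the members changed mainly through FST and INHBA. In control the order by mean RPKM was FSTL1 (171 ± 1.22), FST (24.3 ± 0.916), FSTL3 (20.2 ± 0.907), INHBB (10.3 ± 0.240), ACVR1B (7.13 ± 0.235), ACVR1 (6.87 ± 0.336), ACVR2A (3.88 ± 0.151), INHBA (1.86 ± 0.189) and ACVR2B (0.931 ± 0.0520) (SD, n = 3). The ranges of ACVR1B and ACVR1 overlapped, and those of all other neighbours in that order did not. In siBRG1 the order was FSTL1 (172 ± 6.78), FSTL3 (18.5 ± 0.870), INHBB (10.5 ± 1.00), ACVR1B (10.1 ± 1.03), ACVR1 (9.99 ± 1.02), FST (8.19 ± 1.26), ACVR2A (2.03 ± 0.106), ACVR2B (0.827 ± 0.190) and INHBA (0.391 ± 0.0657). There INHBB, ACVR1B, ACVR1 and FST formed a run in which each overlapped its neighbour. FST went from the second place to the sixth, and INHBA from the eighth to the last. Lengths are of all annotated exons together, from 2.97 kb for FST to 15.7 kb for ACVR2B, so a gene with long exons that are seldom used can be placed too low.

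Summed per length, both the antagonists and the ligand subunits were lower in siBRG1 libraries, the antagonists by the wider margin. FST and FSTL3 together stood at 44.5, 44.6 and 44.7 RPKM in control and at 27.5, 24.8 and 27.9 RPKM in siBRG1 libraries. INHBA and INHBB together stood at 11.7, 12.5 and 12.2 RPKM in control and at 11.5, 9.86 and 11.5 RPKM in siBRG1 libraries, with a narrow gap between the groups. The ratio of antagonist to ligand mRNA was 3.80, 3.55 and 3.67 in control libraries and 2.39, 2.52 and 2.43 in siBRG1 libraries, or 3.68 ± 0.126 and 2.45 ± 0.0657 (SD, n = 3). It is a description of members chosen with earlier results known and carries no test. FST stood at 14.8, 11.3 and 13.5 times the RPKM of INHBA in control and 23.9, 15.2 and 25.2 times in siBRG1, where the lowest siBRG1 library was close to the highest control library. Against INHBB it stood at 2.37 ± 0.138 times in control and 0.775 ± 0.0759 times in siBRG1. FST made up 54.6 ± 2.04% of the antagonist sum in control and 30.5 ± 3.16% in siBRG1.

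Among the receptors, the RPKM of ACVR1 over that of ACVR1B was 0.964 ± 0.0586 in control and 0.988 ± 0.0544 in siBRG1, with overlapping libraries. ACVR2A was 4.18 ± 0.351 times as abundant per length as ACVR2B in control and 2.53 ± 0.446 times in siBRG1. The sum of the 2 type I genes over that of the 2 type II genes was 2.82, 2.83 and 3.09 in control libraries and 5.91, 7.11 and 8.27 in siBRG1 libraries.

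**Figure D3:**
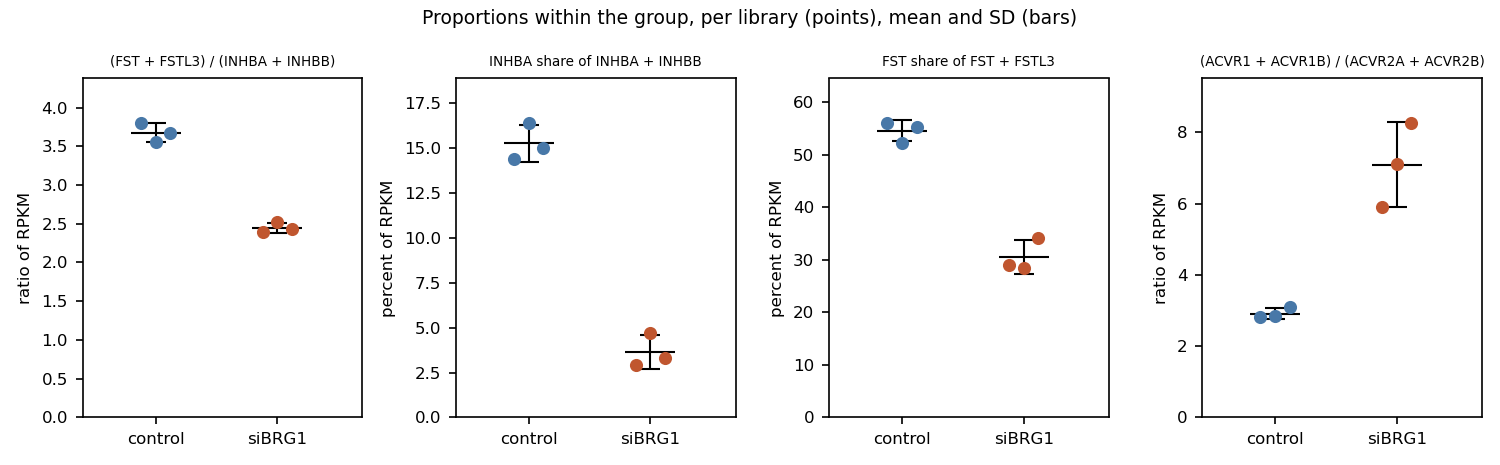
Proportions of summed RPKM in each control and siBRG1 library (points) with mean and SD (bars), on axes from 0: antagonists over ligand subunits, the INHBA share of both subunits, the FST share of both antagonists, and type I over type II receptors. The first 3 are lower and the last is higher in every siBRG1 library.

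The rest of the pathway was read from 49 further genes in 6 lists by role. Of these 31 had enough counts to be tested, 19 fell, 10 rose and 2 did not pass, with a median log2 fold change of −0.30, where 36.5% of all genes tested fell and 36.1% rose. Of 10 other ligands 2 were tested. GDF11, a ligand that uses the activin type II receptors, fell, with 41.1 ± 0.498 CPM in control, 28.03 ± 2.14 in siBRG1 and −0.55 ± 0.0666 (SE) as the log2 difference (adjusted p = 2.40e-08). INHA, the inhibin alpha subunit gene, was named after its value was seen. It stood at 1.37 ± 0.0717 CPM in siBRG1 and 0.461 ± 0.221 CPM in control (log2 fold change 1.60, adjusted p = 0.000638), and with unstranded counts, at 0.45, it was not called (adjusted p = 0.176). NODAL, GDF1, GDF3 and LEFTY2 had 0 counts in all 6 libraries. Of 4 convertases that can cleave ligand precursors 3 were tested. FURIN rose, with 56.0 ± 2.97 CPM in control, 86.4 ± 4.86 in siBRG1 and 0.63 ± 0.0541 (SE) as the log2 difference, and PCSK7 fell, with 56.8 ± 1.64 CPM in control, 39.1 ± 3.88 in siBRG1 and −0.54 ± 0.0631 (SE) as the log2 difference. PCSK6, named after its value was seen, fell from 1.04 ± 0.227 CPM in control to 0.400 ± 0.295 CPM in siBRG1. Its log2 fold change was −1.34 (SE 0.449, adjusted p = 0.0095), on 16 counts in siBRG1 and 132 in control. It was not read under the alternative settings.

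Of 8 other receptors and co-receptors 4 were tested, 2 of which rose and 2 fell. TGFBR3, which encodes betaglycan, the co-receptor through which inhibin opposes activin, rose, with 9.86 ± 0.147 CPM in control, 15.4 ± 3.22 in siBRG1 and 0.64 ± 0.116 (SE) as the log2 difference (adjusted p = 1.59e-05). BAMBI, a decoy that resembles a type I receptor without a kinase, fell, with 11.9 ± 0.468 CPM in control, 6.86 ± 1.48 in siBRG1 and −0.80 ± 0.126 (SE) as the log2 difference (adjusted p = 2.35e-06). ACVR1C, which encodes the type I receptor ALK7, was named after its value was seen, with 15 counts in siBRG1 and 196 in control (log2 fold change −1.98, SE 0.412). Of 5 other antagonists only WFIKKN1 was tested, and at −0.29 on the log2 scale it was not called (adjusted p = 0.675).

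Of 14 genes that carry or restrain the SMAD signal 13 were tested, and 12 fell and 1 rose, with a median log2 fold change of −0.56. Of all genes tested 36.5% were called lower and 36.1% higher. SKIL, a SMAD co-repressor gene that the pathway itself induces, fell, with 99.7 ± 2.37 CPM in control, 30.7 ± 3.88 in siBRG1 and −1.70 ± 0.0635 (SE) as the log2 difference (adjusted p = 1.61e-19). SMAD7, the inhibitory SMAD of negative feedback, fell, with 15.3 ± 1.35 CPM in control, 5.55 ± 0.774 in siBRG1 and −1.46 ± 0.124 (SE) as the log2 difference (adjusted p = 1.87e-11). TGIF1, a homeobox co-repressor gene, rose, with 34.0 ± 1.04 CPM in control, 47.7 ± 5.62 in siBRG1 and 0.49 ± 0.0688 (SE) as the log2 difference. The signal transducers were looked at after their values were seen. SMAD2 fell by 0.81, SMAD3 by 0.56 and SMAD4 by 0.27 on the log2 scale. With GC and length trends removed SMAD2 stood at −0.37 and SMAD3 at −0.49, both called, and SMAD4 at −0.017 was not (adjusted p = 0.764).

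The 8 genes listed here as targets shared by activin and TGF-beta went both ways, with 5 higher, 2 lower and PMEPA1 not passing. The 5 higher were CDKN1A, CDKN2B, JUNB, LTBP2 and LEMD3. Whether each is a target of the pathway in these cells was not tested. The shares over all genes tested were 36.1% higher and 36.5% lower. TAGLN, which encodes a smooth muscle actin-binding protein, fell (21.3 ± 1.42 CPM in control, 8.78 ± 0.323 in siBRG1), by 1.28 on the log2 scale. LTBP2, of the latent TGF-beta binding protein family, rose (14.6 ± 1.35 CPM in control, 50.5 ± 3.64 in siBRG1), with a log2 difference of 1.80. CDKN1A, which encodes the cell cycle inhibitor p21, rose, with 30.5 ± 2.45 CPM in control, 85.3 ± 2.07 in siBRG1 and 1.48 ± 0.0589 (SE) as the log2 difference.

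**Figure D4:**
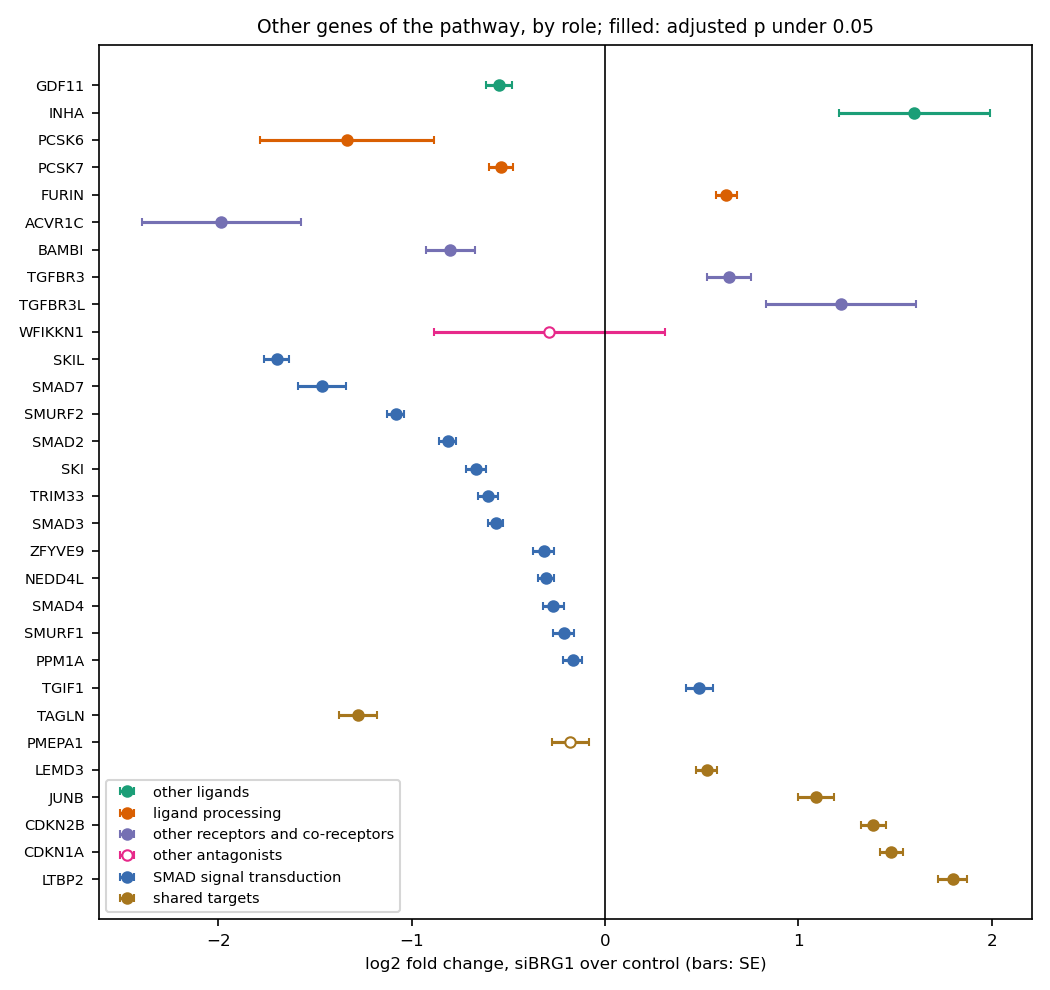
Log2 fold change, siBRG1 over control, with SE (bars) of the tested pathway genes outside the members, 1 of which is not drawn, coloured by role; filled points were called. In the SMAD signal group 12 of 13 genes lie left of 0 and TGIF1 lies right of it. Of the genes listed as shared targets 5 lie right of 0 and were called. Of all genes tested 36.5% were called lower and 36.1% higher.

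By GENCODE 29 a few genes lie across the members. INHBA-AS1, on the opposite strand of INHBA, had 5 counts in siBRG1 and 11 in control and was not tested. ACVR2B-AS1, opposite ACVR2B, was not called, with 0.844 CPM in siBRG1, 0.461 CPM in control and a log2 fold change of 0.88 (adjusted p = 0.0560). ORC4, an origin recognition gene whose end overlaps that of ACVR2A on the other strand, rose by 0.20 (SE 0.0544, adjusted p = 0.00176) while ACVR2A fell. AC063952.1, a pseudogene opposite FSTL1, did not pass (log2 fold change 1.03, SE 0.512, adjusted p = 0.0740).

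Likeness to a member was measured as the Euclidean distance of centred log2(CPM + 0.5) over the 6 libraries, among 11405 protein-coding genes. Nearest to INHBA were HNRNPA1P48 (distance 0.237), TMPPE (0.242) and NEXN (0.314), with log2 fold changes of −2.18, −2.36 and −2.22. HNRNPA1P48 is a near copy of HNRNPA1, so its counts are uncertain. Nearest to ACVR1, the member with the largest rise, were FASTK (0.0428), NXT1 (0.0822) and RNF19B (0.0912), with log2 fold changes of 0.56, 0.56 and 0.56. In the authors' deposited table the log2 fold changes were −2.27 for INHBA, −1.60 for FST, −0.96 for ACVR2A, 0.52 for ACVR1 and 0.48 for ACVR1B, and FSTL3 had −0.15 with an adjusted p of 0.0150. The authors' deposited table gave adjusted p = 0.884 for INHBB, 0.642 for FSTL1 and 0.154 for ACVR2B.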

How the data were processed

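For each of the 6 libraries the authors deposited raw counts per gene in unstranded, antisense and sense columns. Per the submitters' processing notes, reads were handled with cutadapt, Trim Galore, FastQC and STAR on GRCh38.p12, with an annotation release not given in the sources used here. Per the file headers, a table that the authors deposited holds their log2 fold changes, standard errors and adjusted p-values, and the processing notes name DESeq2.

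Sense counts were used, and entries naming no gene were left out: several places (20.3 ± 1.62% of reads in siBRG1, 9.81 ± 0.224% in control), no feature (3.97 ± 0.194% and 13.3 ± 0.415%), ambiguous (3.11 ± 0.0288% and 4.16 ± 0.0271%) and unmapped (1.84 ± 0.0732% and 1.64 ± 0.0678%; SD, n = 3). Of 58336 identifiers 58216 matched GENCODE 29. No 2 libraries of a group were alike within counting error (chi-square over its degrees of freedom 2.64 to 4.55). Depth sets the precision: 3 counts are 0.236 CPM in siBRG1 and 0.0690 CPM in control libraries on average. These values are per 1000000 counts of the library total before normalisation, unlike the CPM above.

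edgeR 4.0.16 in R 4.3.3 was used with TMM, filterByExpr and robust quasi-likelihood fits on group, two-sided. The SE is the absolute log2 fold change over the square root of F. The test was also run on simulated counts in which far fewer genes changed than were called here, so that run does not vouch for these calls. Alternatives included DESeq2 1.42.0, other scalings and filters, unstranded counts, protein-coding genes only, GC and length trends removed (mgcv 1.9.3), a replicate block and leaving out each library. Members and lists were chosen with earlier results of these data known. Named were all members, SMARCA4, per list the 2 largest falls and 2 largest rises among called genes with a mean of at least 50 counts, genes overlapping a member, and the 3 genes most like the members with the largest rise and fall. The values of 1 gene that this rule names are not reported here. Of 9 members, all 9 had a RefSeq promoter window.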

Additional observations from a re-analysis of the deposited data

Results flagged for a closer look

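Counts on the strand opposite FSTL3 enter the results above only through the setting with unstranded counts. Their share of its stranded counts was 1.20, 1.56 and 3.62% in siBRG1 libraries and 1.12, 1.20 and 0.887% in control libraries. The groups were barely apart, with 1.205% from 10 counts in siBRG1 replicate 1 and 1.197% from 31 counts in control replicate 2. The means were 2.13 ± 1.31% and 1.07 ± 0.162% (SD, n = 3). They rest on 48 counts in siBRG1 and 86 in control, and 27 of the siBRG1 counts came from replicate 3. The share of all genes that separate in this way was not computed, and the cause was not tested.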

How the results depend on the processing

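The calls of INHBA, FST, ACVR2A, ACVR1 and ACVR1B held, with the same direction, under all 15 alternatives. The count of members called ranged from 5 to 7 of 9 and that of other pathway genes from 25 to 31. The numbers tested and the background moved too. With at least 50 counts in 3 libraries, 5 members, 25 of 26 other pathway genes and 9980 of 12811 genes were called. With no count filter 31 of 42 other pathway genes and 12541 of 30426 genes were called. Leaving out siBRG1 replicate 3 gave 31 of 32 and 11692 of 17322. With GC and length trends removed, 7 members and 11193 of 15830 genes were called. Small estimates changed sign. FSTL1 was at −0.0096 with DESeq2 size factors, −0.037 with no count filter, −0.034 with protein-coding genes only, −0.020 with DESeq2, and −0.019 to 0.036 when a library was left out. INHBB was at −0.0058 with no count filter, −0.0028 with protein-coding genes only, −0.13 with GC and length trends removed, and −0.0024 to 0.12 when a library was left out. ACVR2B was at 0.060 with those trends removed. AC063952.1 was at −3.64 with unstranded counts, and the cause was not tested. The ratio of antagonist to ligand mRNA was 2.19 in siBRG1 and 2.78 in control when CPM were not divided by gene length. With the length of the longest transcript, an alternative chosen after seeing the data, it was 2.88 and 4.13. The replicate numbers are not said to pair the libraries. Deviations of same-numbered libraries correlated at −0.017, 0.029 and 0.0092, and those of differently numbered libraries at −0.039 to 0.025. Values this small cannot show whether libraries were paired. With a replicate block 11194 genes were called in place of 11498, and 5 members in place of 6, FSTL3 being at adjusted p = 0.0526. Among the 9 members depth limits INHBA in siBRG1 most, at 38 to 49 counts a library, and INHA, ACVR1C, PCSK6 and AC063952.1 rest on fewer.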
